A study of Homo sapiens with 36 samples.

Results

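The NRF2 and glutathione genes described here are 10 genes of the cellular defence against oxidation, chosen by name out of the 57820 genes of a count table. The cells are A2780, an established line from a human ovarian cancer. They are NFE2L2, GCLC, GCLM, GSR, GPX4, GSTP1, TXNRD1, SRXN1, NQO1 and HMOX1, and all 10 were found by the symbol of their Ensembl identifier. RNA-seq was performed on 36 libraries, 3 for each of 12 conditions. The sensitive parental cells (wt), the resistant cells that came out of long exposure to cisplatin (cis), and cis cells that had regrown after a period without serine and glycine and had regained serine synthesis (cis SSP) were each grown in complete medium or in medium without serine and glycine (-SG), with carboplatin (carbo) or without it. The labels give the carboplatin dose as 6 M, whereas other assays of the same cells used 6 µM. All cells share the A2780 background, each resistant line is a single selected population, and the 3 libraries of a condition are called technical replicates by the study's legends, so that p-values measure the spread between libraries and not between independent cultures.

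NFE2L2 encodes NRF2, a transcription factor that KEAP1 holds in the cytoplasm and marks for degradation until oxidants or electrophiles modify KEAP1. NRF2 then pairs with small MAF proteins on antioxidant response elements, and BACH1 competes for the same sites, most visibly at HMOX1. GCLC and GCLM form the ligase that sets the rate of glutathione synthesis, GSR returns oxidized glutathione to its reduced form, GPX4 uses glutathione to reduce lipid peroxides, and GSTP1 joins glutathione to electrophiles. TXNRD1 reduces thioredoxin, SRXN1 repairs over-oxidized peroxiredoxins, NQO1 reduces quinones and HMOX1 breaks down heme. Glutathione is made from glutamate, cysteine and glycine, and serine is a source of both cysteine and glycine. The data thus bear on whether genes of this defence differed between sensitive and resistant cells, with the platinum drug and without the amino acids that feed glutathione.

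The antioxidant response element was looked for as the letters TGACNNNGC, on both strands (the reverse being GCNNNGTCA), in RefSeq promoters of GRCh38.p14 that run from 250 bases before to 50 bases after a gene's start. Of 35116 promoters, 13.3% held these letters. Promoters of 8 of the genes were found, 12 in all, and those of GCLM, GSTP1 and TXNRD1 held a match, whereas the listed starts of NFE2L2, GCLC, GPX4, NQO1 and SRXN1 did not in these 300 bases. No promoter of GSR or HMOX1 was found. A match is a description of letters and says nothing of binding. The 4 promoters with a match are shown with the match in capitals. Of these genes, GCLM and TXNRD1 changed with carboplatin in wt cells and GSTP1 did not pass the test there. NFE2L2, GPX4 and NQO1 also changed there, without a match. The TXNRD1 promoters belong to its first and second listed start. All run from 5′ to 3′ on the strand of the gene.
GCLM, chr1:93909381-93909680, minus strand: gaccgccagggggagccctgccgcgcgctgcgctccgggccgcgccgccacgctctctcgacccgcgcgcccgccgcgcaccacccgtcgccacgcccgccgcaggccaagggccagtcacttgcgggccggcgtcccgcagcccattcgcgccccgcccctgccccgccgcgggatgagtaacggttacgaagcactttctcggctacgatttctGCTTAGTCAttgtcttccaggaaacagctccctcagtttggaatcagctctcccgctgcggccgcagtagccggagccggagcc
GSTP1, chr11:67583562-67583861, plus strand: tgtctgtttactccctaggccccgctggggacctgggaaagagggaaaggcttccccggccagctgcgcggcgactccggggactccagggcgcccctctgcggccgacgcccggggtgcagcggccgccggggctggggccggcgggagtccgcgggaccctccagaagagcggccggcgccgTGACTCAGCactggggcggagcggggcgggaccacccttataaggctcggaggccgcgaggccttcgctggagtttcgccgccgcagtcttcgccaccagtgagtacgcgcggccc
TXNRD1, chr12:104215529-104215828, plus strand: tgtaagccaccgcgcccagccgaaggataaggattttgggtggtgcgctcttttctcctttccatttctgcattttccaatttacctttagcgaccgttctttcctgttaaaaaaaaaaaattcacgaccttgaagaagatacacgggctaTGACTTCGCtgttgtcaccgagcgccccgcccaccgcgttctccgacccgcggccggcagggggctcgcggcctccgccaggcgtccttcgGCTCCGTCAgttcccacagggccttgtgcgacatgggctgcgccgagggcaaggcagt
TXNRD1, chr12:104286782-104287081, plus strand: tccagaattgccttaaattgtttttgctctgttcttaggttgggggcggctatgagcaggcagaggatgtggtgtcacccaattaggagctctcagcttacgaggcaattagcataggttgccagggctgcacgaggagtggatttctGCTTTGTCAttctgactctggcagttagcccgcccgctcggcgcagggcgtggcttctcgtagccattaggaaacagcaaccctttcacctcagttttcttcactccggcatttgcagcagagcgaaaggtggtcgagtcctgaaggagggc
The match began 34 bases before the start in GCLM, 66 in GSTP1, 99 and 8 in the first TXNRD1 promoter and 102 in the second.

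The genes lie on GRCh37 at chr2:178083395-178257484 (NFE2L2, minus strand), chr6:53362139-53481768 (GCLC, minus), chr1:94350755-94375012 (GCLM, minus), chr8:30535583-30585363 (GSR, minus), chr19:1103981-1106790 (GPX4, plus), chr11:67351213-67354127 (GSTP1, plus), chr12:104609557-104744085 (TXNRD1, plus), chr20:627259-633844 (SRXN1, minus), chr16:69740899-69760571 (NQO1, minus) and chr22:35776354-35790207 (HMOX1, plus). These positions are of GENCODE v44, whereas the counts cover the exons of GENCODE v19, which were not compared. Reads of NFE2L2 may be less certain. In GENCODE v44, 23.4% of its exon bases also lie in exons of HNRNPA3 on the opposite strand. The strand setting of the counting is not given, and whether the exons counted overlap in this way was not looked at. SRXN1 could hardly be measured, since its counts ran from 1 to 23 per library with a median of 7. In GENCODE v44, 90.7% of its exon bases belong to a second protein-coding gene model on the same strand (ENSG00000270299).

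Each library held between 13074937 and 20441582 counts on genes (median 17663485). Replicate 1 of cis SSP and replicate 2 of cis SSP -SG stood apart in a trend over exon length. Their log2 levels relative to the other libraries of the condition changed by -0.37 and -0.38 per doubling of exon length. The other libraries ran from -0.14 to 0.20. The values of 0.17 to 0.20 were those of the other replicates of cis SSP and cis SSP -SG. The value of -0.14 was that of replicate 2 of wt -SG carbo, whose other replicates were at 0.08 and 0.07. Libraries of all other conditions ran from -0.04 to 0.04. Replicates 2 and 3 of cis -SG carbo had 17.9% and 14.9% of counts on no gene, against at most 9.31% elsewhere. The column names carry the index sequence of each library, and each index of a wt library also served a cis SSP library, whereas cis libraries shared none. Sequencing lanes are not given in the labels. Markers of cell types were mixed, given here in CPM (counts scaled to a common library size). Of the 5 markers of Mullerian tissue and ovarian carcinoma, PAX2 reached 204 CPM, whereas PAX8, WT1, MUC16 and EMX2 reached at most 1.42 CPM. Of the 5 epithelial markers KRT18 ran from 0.34 to 44.1 CPM, and EPCAM, KRT8, KRT19 and CDH1 reached at most 7.74 CPM. Of the 3 mesenchymal markers VIM ran from 1517 to 4599 CPM and CDH2 from 9.65 to 1403 CPM, but FN1 was at most 2.87 CPM. The 4 leukocyte markers summed to at most 0.37 CPM and the 2 endothelial markers found to at most 0.41 CPM in any library.

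Levels are given as CPM after TMM scaling over the 36 libraries. Per kilobase of the canonical transcript, which allows genes to be compared, wt cells in complete medium held 416 CPM per kilobase of GSTP1 and 323 of GPX4, both glutathione-using enzymes. Next came TXNRD1 with 67.9, GSR with 65.8, NQO1 with 56.6 and NFE2L2 with 44.6 CPM per kilobase. HMOX1 followed with 19.1, GCLM with 10.97 and GCLC with 9.87 CPM per kilobase, and SRXN1 was at 0.13. Across the 12 conditions the mean level of HMOX1 spanned 35.7-fold, from 29.7 CPM in wt to 1058 CPM in wt -SG carbo. The other genes spanned far less, from 1.61-fold for GSR to 3.27-fold for GCLM, leaving aside SRXN1 with its low counts.

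**Figure D1:**
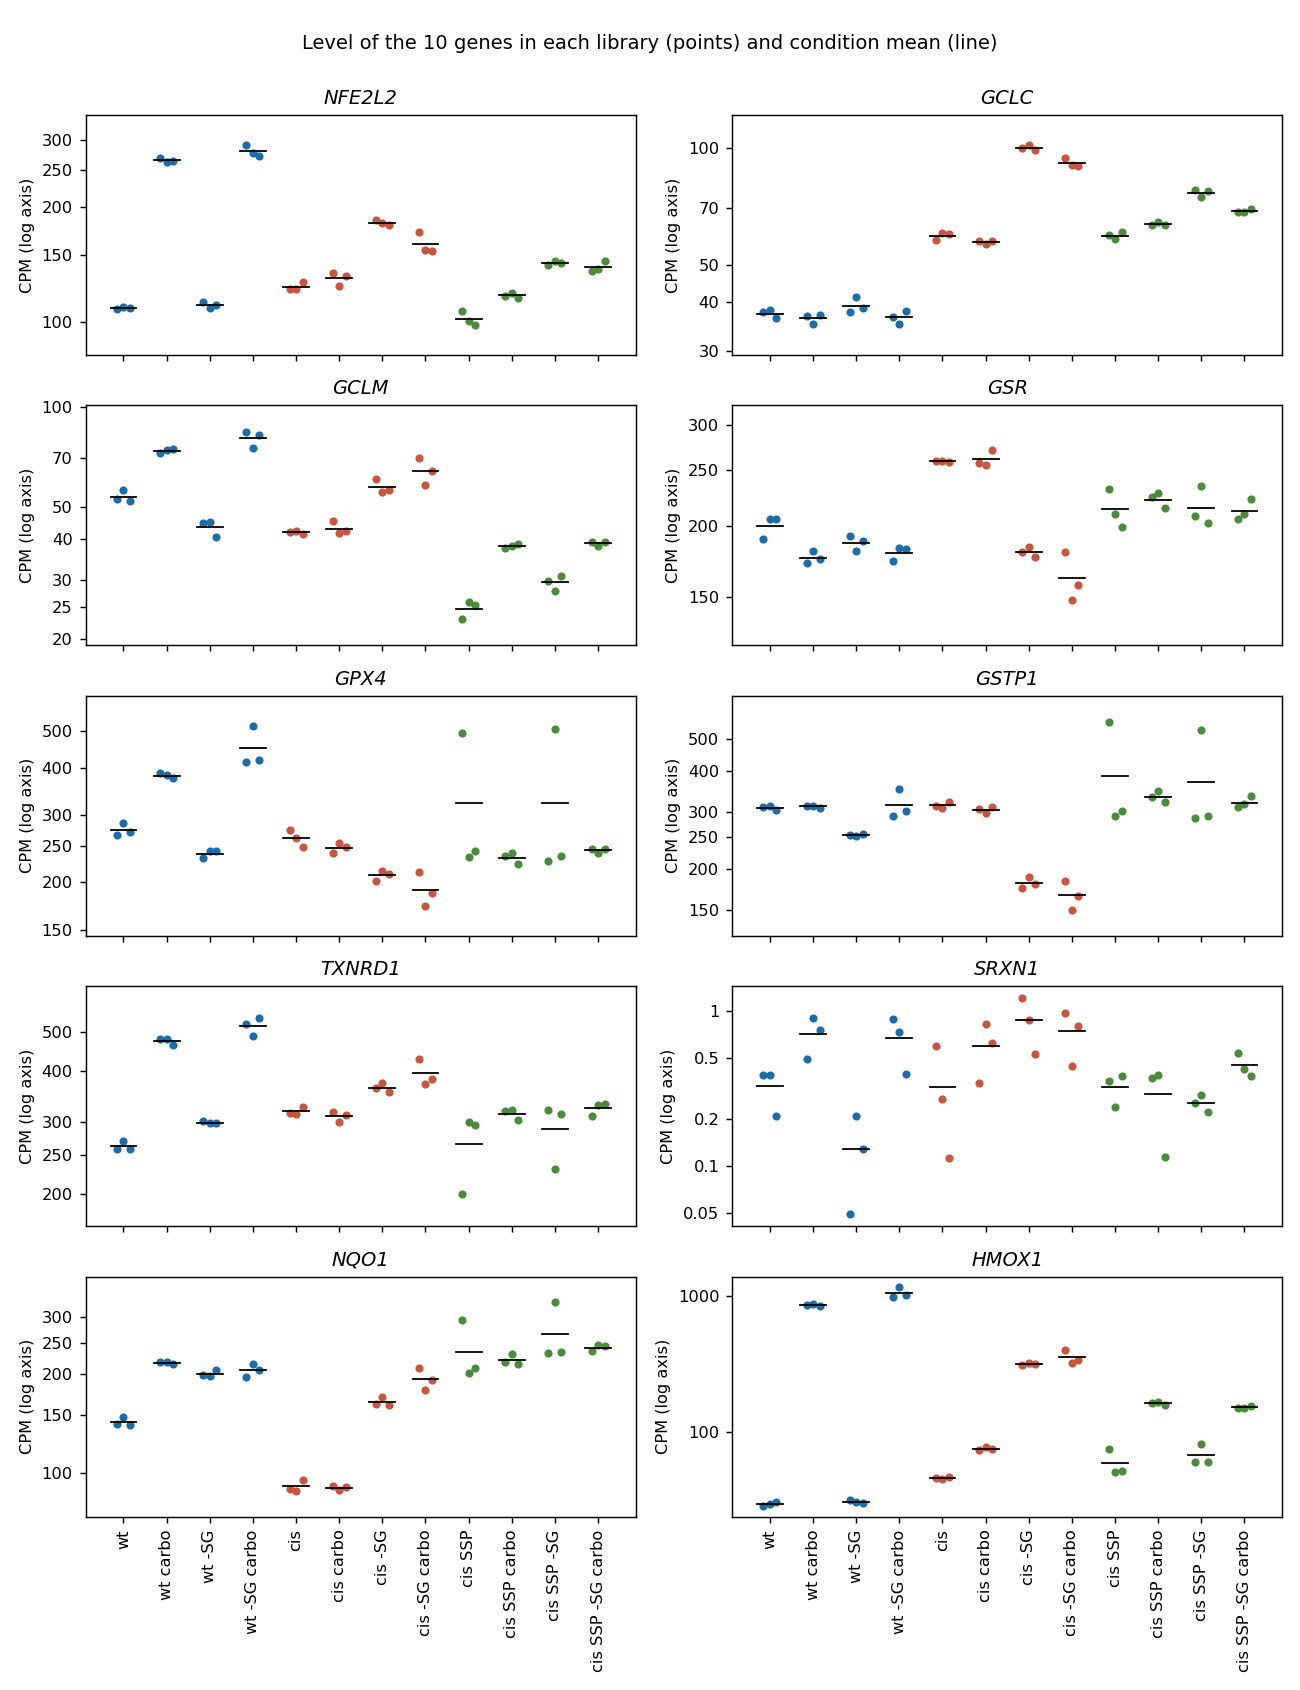
CPM of each of the 10 genes (log axis, a scale of its own per panel) in the 3 libraries of each of the 12 conditions (points; blue wt, red cis, green cis SSP), with the condition mean as a line. HMOX1 reached 866 CPM in wt carbo and 1058 CPM in wt -SG carbo, above all other conditions, and 1 library each of cis SSP and cis SSP -SG lay apart for GPX4, GSTP1, TXNRD1 and NQO1.

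To ask how the defence genes differed between sensitive and resistant cells, cis was compared with wt in complete medium. GCLC, GSR, TXNRD1, HMOX1 and NFE2L2 were higher in cis, and NQO1, GCLM and GPX4 were lower, so that the 2 subunits of the glutathione ligase differed in opposite directions. A gene was called where the adjusted p was under 0.05, and 5 of the 9 members tested were called higher and 3 lower. The background was large, since 39.4% of the 14431 genes tested were called higher and 39.1% lower, and a count of 8 of 9 is close to it. The median log2 difference was 0.15 over the 9 members and -0.0041 over all genes tested.

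GCLC, the catalytic subunit, was at 37.6, 38.1 and 36.4 CPM in the wt libraries and at 57.9, 60.5 and 60.0 CPM in the cis libraries. The groups did not overlap, and the log2 fold change was 0.64 ± 0.05 (SE, n = 3 and 3 libraries, adjusted p = 4.09e-17 by edgeR). GCLM, the modifier subunit, was at 52.6, 56.1 and 52.0 CPM in wt and at 42.1, 42.3 and 41.3 CPM in cis. All 3 cis libraries were lower, with a log2 fold change of -0.39 ± 0.05 (adjusted p = 2.95e-10).
NQO1 was at 141, 148 and 140 CPM in wt and at 89.2, 87.9 and 95.1 CPM in cis, a log2 fold change of -0.69 ± 0.03 (adjusted p = 3.64e-23). HMOX1 was at 28.8, 29.6 and 30.6 CPM in wt and at 46.4, 45.1 and 46.7 CPM in cis. Its log2 fold change was 0.60 ± 0.05 (adjusted p = 1.25e-14), again with no overlap. The remaining called differences were smaller, with log2 fold changes of 0.34 for GSR, 0.25 for TXNRD1, 0.15 for NFE2L2 and -0.11 for GPX4. The call for GPX4 (adjusted p = 0.0155) was lost without wt replicate 2 (adjusted p = 0.0547) or cis replicate 2 (adjusted p = 0.0823). GSTP1, at 308 ± 3.65 CPM for wt against 314 ± 7.27 CPM for cis (SD, n = 3), did not pass the test (adjusted p = 0.811). Several marker sets differed beside this comparison. The summed level of the fibroblast markers COL1A1, COL1A2, DCN and PDGFRB ran from 532 to 563 CPM in the 3 wt libraries and from 5.28 to 5.57 CPM in the 3 cis libraries. The Mullerian set ran from 164 to 167 CPM in wt and from 0 to 0.34 CPM in cis, and the mesenchymal set from 3240.2 to 3343 CPM and from 1804 to 1984 CPM. The epithelial set was the higher one in cis, with 16.5 to 19.7 CPM against 1.66 to 2.11 CPM. Their part in the differences of the members was not tested.

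Carboplatin in wt cells was compared with wt cells in complete medium to see which defence genes moved with the drug in sensitive cells. HMOX1 rose most, and NFE2L2, TXNRD1, NQO1, GPX4 and GCLM rose with it, whereas GSR fell slightly. In numbers, 6 of 9 members were called higher and 1 lower, where 38.9% of all 14639 genes tested were called higher and 39% lower. The median log2 change was 0.49 over the 9 members and -7.36e-04 over all genes tested.

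HMOX1 was at 28.8, 29.6 and 30.6 CPM without and at 864, 882 and 852 CPM with carboplatin. The libraries were far apart, and the log2 fold change of 4.88 ± 0.03 is 29.5-fold, with an adjusted p too small to be written and below that of NFE2L2. NFE2L2 was at 108, 109 and 109 CPM without and at 269, 262 and 265 CPM with carboplatin, a log2 fold change of 1.30 ± 0.03 (n = 3 and 3, adjusted p = 4.01e-254 by edgeR).
TXNRD1 was at 257, 271 and 258 CPM without and at 482, 482 and 464 CPM with carboplatin. Its log2 fold change was 0.88 ± 0.02 (adjusted p = 3.70e-214), again with every treated library above every untreated one. NQO1 rose from 143 ± 4.27 to 217 ± 1.10 CPM (SD), GPX4 from 275 ± 10.1 to 382 ± 5.25 CPM and GCLM from 53.6 ± 2.21 to 73.6 ± 1.12 CPM. Of the genes that did not follow, GSR fell from 200 ± 9.23 to 176 ± 4.62 CPM, a log2 fold change of -0.17 ± 0.02. GCLC was at 37.4 ± 0.91 CPM without and 36.3 ± 0.999 CPM with carboplatin (adjusted p = 0.687), and GSTP1 at 308 ± 3.65 and 311 ± 2.84 CPM (adjusted p = 0.149). In a single fit over all 36 libraries, which takes in the 2 libraries that stood apart, GPX4 was not called (adjusted p = 0.0643). With carboplatin the summed fibroblast markers were at 1608 to 1638 CPM and the epithelial markers at 16.1 to 17.1 CPM. The mesenchymal markers were at 3845 to 3957 CPM and the Mullerian markers at 173 to 188 CPM. All these sets were above the wt values given, and their part was not tested.

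In cis cells the same treatment gave smaller values. HMOX1 was at 46.4, 45.1 and 46.7 CPM without and at 74.4, 77.8 and 75.5 CPM with carboplatin, a log2 fold change of 0.75 ± 0.04 (adjusted p = 1.28e-13). NFE2L2 was the other gene called, with 124 ± 3.35 and 131 ± 5.32 CPM, a log2 fold change of 0.11 ± 0.03 (adjusted p = 0.0269). That call was lost when replicate 1 or 2 of cis or replicate 1 or 3 of cis carbo was left out, with adjusted p of 0.109 to 0.145. Altogether 2 of 9 members were called higher and 0 lower, where 9.27% of 13458 genes were called higher and 10.8% lower. By DESeq2, 1 member was called. At an unadjusted p under 0.05 the members called lower also numbered 0, where 4218 of the 13458 genes passed in either direction.

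The difference between the responses of the lines was tested as an interaction of line and carboplatin. Of 10 members, 6 had a lower response in cis and 1 a higher one, where 30.3% of 15300 genes were called higher and 27.2% lower. The response of HMOX1 was lower in cis by a log2 difference of -4.13 ± 0.05 (adjusted p = 2.38e-56), that of NFE2L2 by -1.19 ± 0.04 (adjusted p = 2.96e-33) and that of TXNRD1 by -0.88 ± 0.03 (adjusted p = 6.56e-31). GSR was the member with a higher value in cis, with a difference of 0.21 ± 0.04. For each of these 7 members the call held with any of the 12 libraries left out, but those for GSR and GPX4 were lost in the single fit over 36 libraries (adjusted p = 0.0937 and 0.194).

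**Figure D2:**
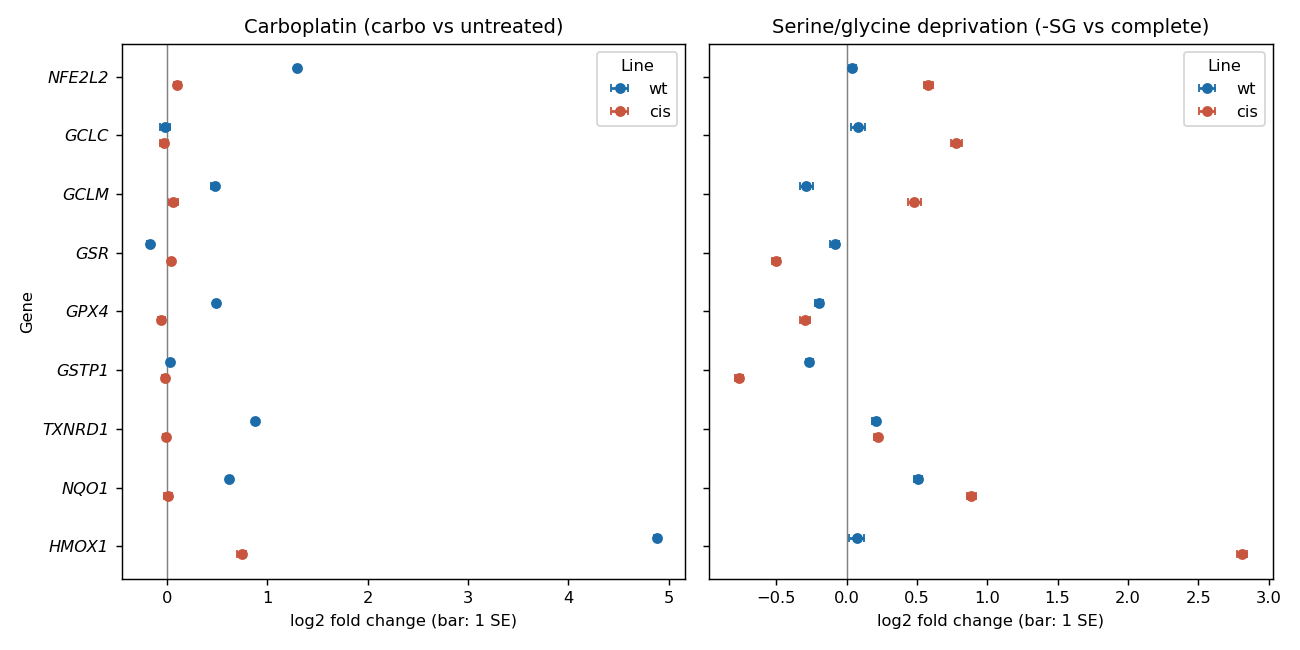
log2 fold change (points, with bars of 1 SE) of 9 genes with carboplatin (left) and with serine/glycine deprivation (right) in wt (blue) and cis (red) cells, each from 3 against 3 libraries. With carboplatin HMOX1 changed by 4.88 in wt and 0.75 in cis, and with deprivation by 0.07 in wt and 2.81 in cis.

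Serine/glycine deprivation was asked about in the same way. In cis cells HMOX1, NQO1, GCLC, NFE2L2, GCLM and TXNRD1 rose, and the glutathione-using and recycling genes GSTP1, GSR and GPX4 fell. With SRXN1, 7 of 10 members were called higher and 3 lower, where 37.6% of 14122 genes were called higher and 37.4% lower. The counts of SRXN1 were low, and it passed the filter on low counts largely through cis -SG, where it was higher. Its call is therefore no separate support. The median log2 change was 0.53 over the 10 members and 0.012 over all genes tested.

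HMOX1 was at 46.4, 45.1 and 46.7 CPM in cis and at 310, 325 and 317 CPM in cis -SG. The groups lay far apart, with a log2 fold change of 2.81 ± 0.03 (adjusted p = 1.66e-46), or 7.02-fold. GCLC was at 57.9, 60.5 and 60.0 CPM and then at 99.9, 102 and 99.2 CPM, a log2 fold change of 0.78 ± 0.04 (adjusted p = 1.21e-22).
GSTP1 was at 312, 308 and 322 CPM in cis and at 175, 189 and 180 CPM in cis -SG. All deprived libraries were lower, with a log2 fold change of -0.76 ± 0.03 (adjusted p = 1.47e-26). NQO1 rose from 90.8 ± 3.84 to 165 ± 4.84 CPM, NFE2L2 from 124 ± 3.35 to 182 ± 2.93 CPM and GCLM from 41.9 ± 0.51 to 57.4 ± 2.94 CPM. GSR fell from 259 ± 1.02 to 180 ± 3.37 CPM and GPX4 from 261 ± 13.7 to 209 ± 6.72 CPM. SRXN1 had 9, 5 and 2 counts in cis and 23, 16 and 10 counts in cis -SG, with a log2 fold change of 1.49 ± 0.43 (adjusted p = 0.00209). GPX4 and TXNRD1 were not called in a single fit over the 36 libraries (adjusted p = 0.184 and 0.168). The summed epithelial markers were at 43.5 to 47.3 CPM in cis -SG, above the cis libraries, and their part was not tested.

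In wt cells deprivation gave fewer calls among the members, as it did over all genes, and these went both ways. NQO1, from 143 ± 4.27 to 201 ± 4.797 CPM, and TXNRD1, from 262 ± 7.52 to 300 ± 2.14 CPM, rose. GCLM, GSTP1, GPX4 and GSR fell, by 0.29, 0.26, 0.19 and 0.09 on the log2 scale, and the call for GSR (adjusted p = 0.0422) was lost without replicate 2 or 3 of wt or of wt -SG, with adjusted p of 0.0723 to 0.213. HMOX1 was at 28.8, 29.6 and 30.6 CPM in wt and at 31.8, 30.6 and 30.3 CPM in wt -SG, which overlapped (adjusted p = 0.280). Thus 2 of 9 members were called higher and 4 lower, where 24.1% of 14284 genes were called higher and 25.1% lower. In the single fit over 36 libraries NQO1 and GCLM were the 2 members called. The median log2 change was 0.04 over the 9 members and 0.0085 over all genes tested.

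The interaction of line and deprivation called 6 of 10 members higher in cis and 2 lower, where 27.1% of 15418 genes were called higher and 26.9% lower. The 6 include SRXN1, which again passed the filter on low counts largely through cis -SG and is no separate support. The response of HMOX1 was higher in cis by 2.76 ± 0.06 on the log2 scale (adjusted p = 1.21e-30), that of GCLM by 0.78 ± 0.07 (adjusted p = 1.70e-12), that of GCLC by 0.71 ± 0.06 (adjusted p = 8.83e-13) and that of NFE2L2 by 0.56 ± 0.04 (adjusted p = 1.19e-13). GCLM fell in wt and rose in cis. TXNRD1 rose in both lines, and its difference was 0.03 ± 0.04 (adjusted p = 0.512).

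Comparisons of wt carbo with wt and of wt -SG with wt share the wt libraries, as the cis comparisons share the cis libraries, so their values are set side by side only. HMOX1 changed by 4.88 with carboplatin and by 0.07 with deprivation in wt, and by 0.75 and 2.81 in cis. GCLC changed by -0.02 and 0.08 in wt and by -0.03 and 0.78 in cis. GPX4 changed by 0.49 and -0.19 in wt and by -0.05 and -0.30 in cis.

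**Figure D3:**
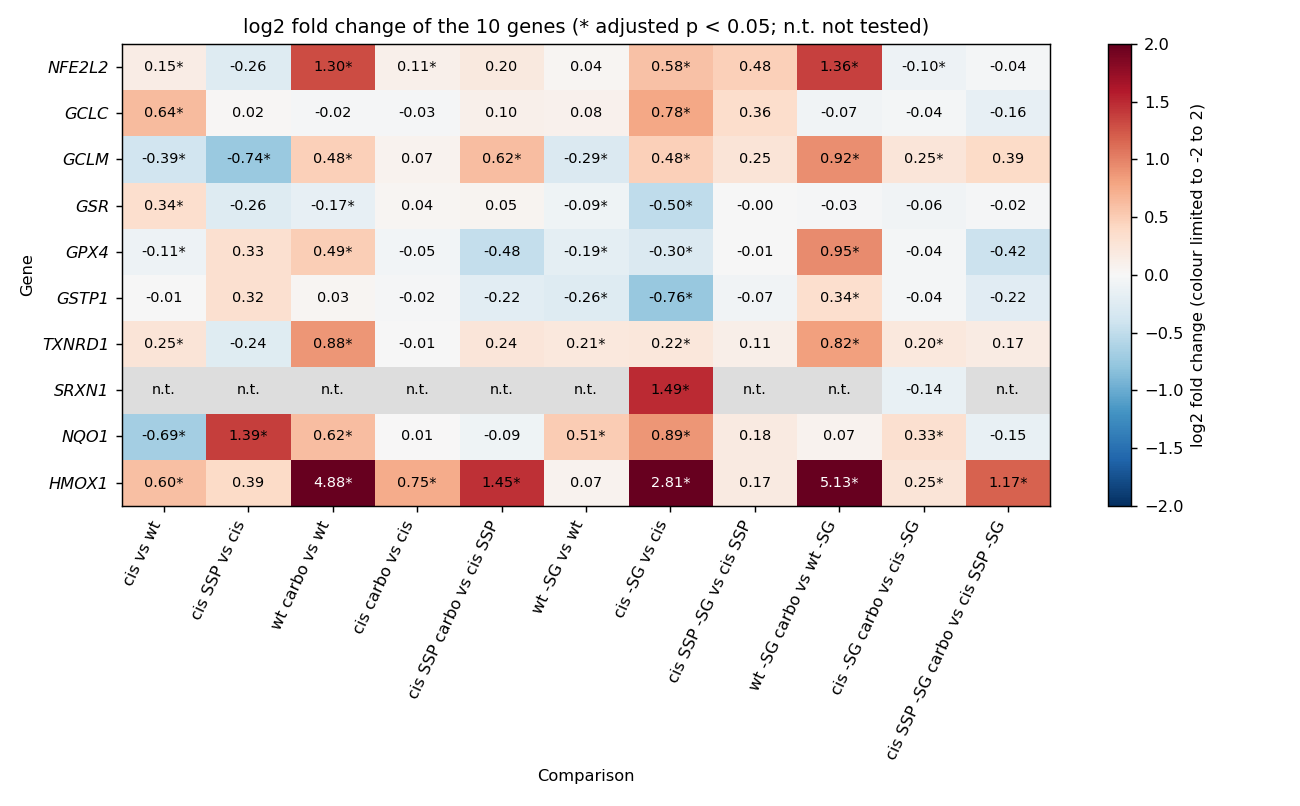
log2 fold change of the 10 genes (rows) in the 11 comparisons of conditions (columns), from 3 against 3 libraries each. The colour is limited to -2 to 2, an asterisk marks an adjusted p under 0.05, and grey fields are genes with counts too low to be tested, such as SRXN1 in 9 of the 11 comparisons.

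Carboplatin was also given without serine and glycine. In wt cells 6 of 9 members were called higher and 0 lower than in wt -SG, where 34.3% of 14467 genes were called higher and 34.6% lower. HMOX1 was at 31.8, 30.6 and 30.3 CPM in wt -SG and at 987, 1161 and 1026 CPM in wt -SG carbo, a log2 fold change of 5.13 ± 0.08 (adjusted p = 3.29e-10). NFE2L2 rose from 111 ± 1.89 to 280 ± 9.73 CPM, TXNRD1 from 300 ± 2.14 to 517 ± 26.3 CPM and GCLM from 43.4 ± 2.54 to 80.7 ± 4.66 CPM. GPX4 was at 231, 241 and 242 CPM in wt -SG and at 414, 517 and 421 CPM in wt -SG carbo, where replicate 2 was high. GSTP1, at 254, 252 and 256 CPM and then at 292, 352 and 302 CPM, was high in the same library, and both calls held with any of the 6 libraries left out, whereas GSTP1 was not called in the single fit over 36 libraries (adjusted p = 0.121). Compared with its value in complete medium, the carboplatin response of wt cells differed for 4 members that were higher without serine and glycine and 1 that was lower, where 14.6% of 15247 genes were called higher and 13.1% lower. The difference was 0.45 ± 0.09 for GPX4 (adjusted p = 0.00190), 0.44 ± 0.08 for GCLM (adjusted p = 5.59e-04) and -0.56 ± 0.06 for NQO1 (adjusted p = 4.08e-06). The single fit over 36 libraries called 2 of these 5 differences, and not those for GPX4, GSTP1 and HMOX1. NQO1 was already at 201 CPM in wt -SG and was at 206 CPM in wt -SG carbo.

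In cis cells without serine and glycine, carboplatin moved the members little. NQO1, HMOX1, GCLM and TXNRD1 were called higher and NFE2L2 lower, so 4 of 10 members were called higher and 1 lower, where 10.9% of 14476 genes were called higher and 11.6% lower. Under total counts without TMM, 1919 genes were called higher and 1220 lower in place of 1575 and 1678. NQO1 was at 163, 170 and 162 CPM in cis -SG and at 210, 180 and 193 CPM in cis -SG carbo, a log2 fold change of 0.33 ± 0.03 (adjusted p = 2.97e-05). HMOX1 was at 310, 325 and 317 CPM and then at 402, 325 and 341 CPM, with a log2 fold change of 0.25 ± 0.04 (adjusted p = 7.69e-04), and its lowest treated and highest untreated library both rounded to 325 CPM. With the 2 libraries of high counts on no gene left out, the log2 fold change of HMOX1 was 0.36 and that of NQO1 0.36. These values rest on 1 library of cis -SG carbo, which is assumed to vary like the 3 of cis -SG. In the single fit over 36 libraries GCLM was the 1 member called, and HMOX1 (adjusted p = 0.224) and NQO1 (adjusted p = 0.0919) were not. The call for NFE2L2, -0.10 ± 0.03 (adjusted p = 0.0468), was lost in that fit (adjusted p = 0.213) and with the 2 libraries left out (adjusted p = 0.363). It was also lost without any other single library than cis -SG carbo replicate 1, with adjusted p of 0.0726 to 0.227. The response of cis cells differed between the media for 4 members, higher without serine and glycine for NQO1 (0.32 ± 0.05) and TXNRD1 (0.22 ± 0.04) and lower for NFE2L2 (-0.20 ± 0.05) and HMOX1 (-0.49 ± 0.06), where 5.91% of 14797 genes were called higher and 6.17% lower. Total counts gave 1131 genes higher and 679 lower in place of 874 and 913 for this difference. None of these 4 differences was called in the single fit over 36 libraries (adjusted p of 0.183 to 0.692), which called 0 members. The TXNRD1 difference was not called without cis -SG replicate 3 (adjusted p = 0.0537).

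The cis SSP cells were compared with cis in complete medium. NQO1 was higher and GCLM lower, so 1 of 9 members was called higher and 1 lower, where 15.8% of 13714 genes were called higher and 13.3% lower. NQO1 was at 89.2, 87.9 and 95.1 CPM in cis and at 293, 202 and 209 CPM in cis SSP, a log2 fold change of 1.39 ± 0.16 (adjusted p = 0.00172), which was 1.22 ± 0.04 without replicate 1. GCLM was at 42.1, 42.3 and 41.3 CPM in cis and at 22.9, 25.8 and 25.2 CPM in cis SSP, a log2 fold change of -0.74 ± 0.10 (adjusted p = 0.00285). Replicate 1 of cis SSP held 495 CPM of GPX4 and 566 CPM of GSTP1, whose transcripts are the shortest here with 851 and 741 bases, against 233 and 242 CPM and 291 and 301 CPM in the other libraries. The same library held 200 CPM of TXNRD1, with a transcript of 3860 bases, against 301 and 296 CPM. GCLC, at 3785 bases nearly as long, was at 59.7 CPM in this library against 58.1 and 60.6 CPM. GCLM (4883 bases) was at 22.9 against 25.8 and 25.2 CPM, and GSR (3034 bases) at 232 against 210 and 198 CPM. NFE2L2 (2446 bases) was at 107 against 101 and 98.7 CPM, and HMOX1 (1554 bases) at 75.7 against 51.3 and 51.6 CPM. Without that library 6 of 9 members were called, with NFE2L2 (-0.27 ± 0.04), GSR (-0.30 ± 0.03) and GPX4 (-0.09 ± 0.04) lower and HMOX1 (0.20 ± 0.05) higher beside NQO1 and GCLM, and 32.9% of all genes were then called higher and 32.5% lower. The summed mesenchymal markers ran from 3187 to 3897 CPM in cis SSP and from 1804 to 1984 CPM in cis. The fibroblast markers ran from 40.4 to 47.1 CPM against 5.28 to 5.57 CPM, and the epithelial markers from 9.33 to 15.4 CPM against 16.5 to 19.7 CPM. Their part was not tested.

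Carboplatin in cis SSP cells raised HMOX1 and GCLM. HMOX1 was at 75.7, 51.3 and 51.6 CPM without and at 165, 166 and 159 CPM with carboplatin, a log2 fold change of 1.45 ± 0.18 (adjusted p = 0.0156). GCLM was at 22.9, 25.8 and 25.2 CPM without and at 37.6, 38.0 and 38.5 CPM with carboplatin, a log2 fold change of 0.62 ± 0.09 (adjusted p = 0.0294). Altogether 2 of 9 members were called higher and 0 lower, where 1.97% of 13885 genes were called higher and 0.749% lower. Total counts gave 225 genes higher and 148 lower in place of 273 and 104. At an unadjusted p under 0.05 no further member was lower, where 2342 of the 13885 genes passed in either direction. Without cis SSP replicate 1, 7 members were called, all higher, with 1.67 ± 0.04 for HMOX1, 0.57 ± 0.06 for GCLM, 0.24 ± 0.03 for NFE2L2 and 0.17 ± 0.03 for GSTP1, and 21.9% of all genes were then called higher and 19.2% lower. Without any other library of the 6, edgeR called 0 members, with adjusted p of 0.0715 to 0.188 for HMOX1 and GCLM.

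Deprivation of cis SSP cells gave no call among the 9 members, where 0.0218% of 13736 genes were called higher and 0% lower. At an unadjusted p under 0.05 there were 2 members, NFE2L2 with a log2 fold change of 0.48 ± 0.11 and GCLC with 0.36 ± 0.10. At that threshold 907 of the 13736 genes passed. DESeq2 called 1 member, NFE2L2. NFE2L2 was at 107, 101 and 98.7 CPM in cis SSP and at 141, 145 and 143 CPM in cis SSP -SG, and the groups did not overlap. HMOX1, at 75.7, 51.3 and 51.6 CPM and then at 60.3, 81.6 and 60.8 CPM, did overlap. With cis SSP replicate 1 and cis SSP -SG replicate 2 left out together, 6 members were called, all higher, and 18.9% of all genes were called higher and 17.03% lower. The largest of these were 0.50 ± 0.04 for NFE2L2 and 0.38 ± 0.05 for GCLC, followed by 0.24 ± 0.07 for GCLM and 0.23 ± 0.05 for HMOX1. With carboplatin and without serine and glycine, HMOX1 was at 151, 151 and 157 CPM, against 60.3, 81.6 and 60.8 CPM in cis SSP -SG. It was the 1 member of 9 called, with a log2 fold change of 1.17 ± 0.15 (adjusted p = 0.0268), where 1.17% of 13541 genes were called higher and 0.295% lower. The count was 5 without cis SSP -SG replicate 2, with 1.36 ± 0.04 for HMOX1 and 21.1% of all genes called higher and 19.9% lower, and 0 without any other library, with adjusted p of 0.122 to 0.182 for HMOX1.

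**Figure D4:**
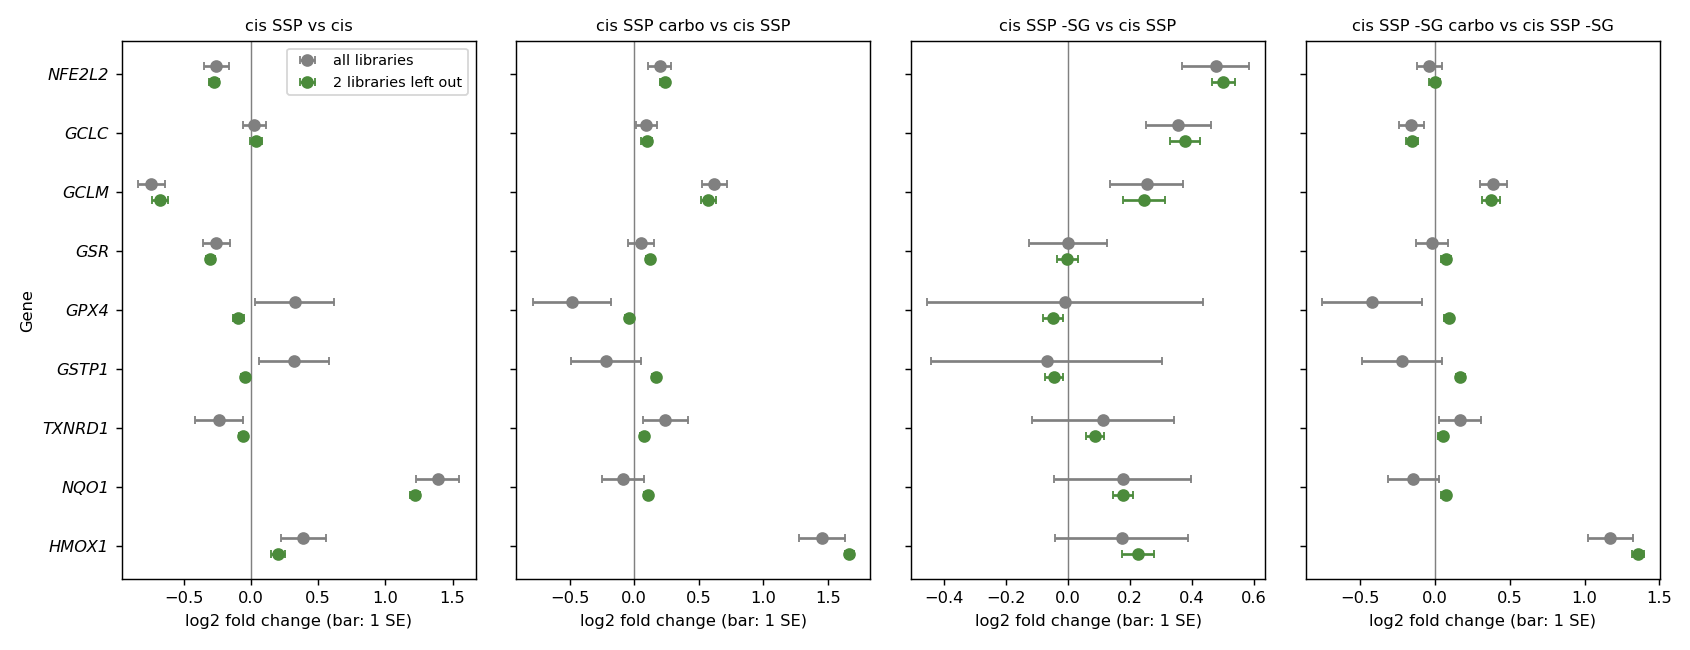
log2 fold change (points, with bars of 1 SE) of 9 genes in the 4 comparisons of cis SSP cells with all libraries (grey) and with cis SSP replicate 1 and cis SSP -SG replicate 2 left out wherever they take part (green). The bars of GPX4, GSTP1, TXNRD1 and NQO1 were wide with all libraries, and HMOX1 rose with carboplatin both ways.

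The order of the conditions had the fewest overlaps for HMOX1 and NFE2L2. HMOX1 ran from wt -SG carbo (1058 CPM) over wt carbo (866), cis -SG carbo (356), cis -SG (317), cis SSP carbo (164), cis SSP -SG carbo (153), cis carbo (75.9), cis SSP -SG (67.5), cis SSP (59.5), cis (46.1) and wt -SG (30.9) to wt (29.7 CPM). Neighbours in this order did not overlap except cis carbo with cis SSP -SG, cis SSP -SG with cis SSP, and wt -SG with wt. For NFE2L2, 3 of the 11 pairs of neighbours overlapped, for GCLC 4, for GCLM 5, for NQO1 7, for TXNRD1 8, and for GSR, GPX4 and GSTP1 9 each. GCLC was lowest in the 4 wt conditions, at 36.3 to 39.2 CPM, and at 57.2 CPM or more in the 8 others.

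As a description, over the 12 condition means of log2 CPM, NFE2L2 correlated with TXNRD1 (Pearson r = 0.95) and with HMOX1 (r = 0.91), and TXNRD1 with HMOX1 (r = 0.93). Other members followed NFE2L2 less or ran against it. The r with NFE2L2 was 0.77 for GCLM, 0.71 for SRXN1, 0.55 for GPX4 and 0.20 for NQO1. It was -0.17 for GCLC, -0.20 for GSTP1 and -0.54 for GSR. GCLC and GPX4 had r = -0.69. These points share lines and libraries. Of the 9513 genes with a mean of at least 10 CPM, the pattern most like that of NFE2L2 was OTUD5 (r = 0.98), of GCLC POGK (0.99), of GCLM TMEM140 (0.96), of GSR PAFAH1B2 (0.98), of GPX4 RNF167 (0.96) and of GSTP1 PDZD11 (0.99). For TXNRD1 it was SQSTM1 (0.97), for SRXN1 TTPAL (0.92), for NQO1 PSKH1 (0.97) and for HMOX1 CLCF1 (0.98).

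Further genes of the same pathways, 108 listed and 106 matched, were counted in 7 groups. In cis against wt, 41 of 90 tested were higher and 37 lower, with a median log2 fold change of 0.02. Over all genes tested 39.4% were higher and 39.1% lower, so the total is close to the background, and the counts of each group stand beside the same shares. Of genes for glutathione synthesis, uptake and breakdown, 10 of 13 were higher and 3 lower. Among them CTH, which makes cysteine from cystathionine, differed by 2.34 ± 0.07 on the log2 scale and the cystine carrier gene SLC7A11 by 1.34 ± 0.05. CHAC1 and GGT7 of that group were lower, at -0.58 ± 0.05 and -0.37 ± 0.06. Of glutathione transferases and exporters, 4 of 15 were higher and 11 lower, with ABCC1, an exporter of glutathione conjugates, at 0.53 ± 0.03 and GSTM2 at -1.93 ± 0.11. Of glutathione peroxidases and glutaredoxins 3 of 9 were higher and 6 lower, of thioredoxins and peroxiredoxins 5 and 5 of 14, of regulators 4 and 4 of 10, of NADPH supply 5 and 3 of 10, and of quinone, carbonyl and heme targets 10 and 5 of 19. OSGIN1, of the last group, was higher by 4.10 ± 0.14, whereas FTH1 and FTL of that group were at -1.13 ± 0.09 and -0.54 ± 0.02. ME1, the cytosolic malic enzyme that makes NADPH, was at 25.5 ± 0.70 CPM in wt and had no counts in the 3 cis libraries, which is at least 129-fold lower against a floor of 3 counts per library.

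With carboplatin in wt cells 41 of 93 such genes were higher and 43 lower, where 38.9% of all genes were higher and 39% lower. All 8 called regulators of 10 tested were higher, among them SQSTM1, an autophagy receptor that binds KEAP1, at 2.45 ± 0.03 and the small MAF gene MAFF at 2.02 ± 0.04. In NADPH supply 0 were higher and 9 of 10 lower, with IDH1 at -2.01 ± 0.04 and IDH2 at -1.59 ± 0.05. Of quinone, carbonyl and heme targets 13 of 19 were higher and 5 lower, with FTH1 at 2.24 ± 0.03, NQO2 at 1.66 ± 0.03, PIR at -0.92 ± 0.06 and CAT at -0.78 ± 0.05. Of glutathione transferases and exporters 5 of 17 were higher and 11 lower. The groups for glutathione synthesis, uptake and breakdown (4 higher and 7 lower of 13), peroxidases and glutaredoxins (4 and 4 of 9) and thioredoxins and peroxiredoxins (7 and 7 of 15) were mixed. SLC7A11 fell by 1.08 on the log2 scale, from 27.5 ± 0.36 to 12.9 ± 0.62 CPM, while PRDX6, a peroxiredoxin, rose by 0.84 ± 0.02.

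In cis cells with carboplatin 20 of 88 were higher and 19 lower, where 9.27% of all genes were higher and 10.8% lower. With deprivation 31 of 91 were higher and 31 lower in wt, where 24.1% of all genes were higher and 25.1% lower. In deprived cis cells 32 of 91 were higher and 43 lower, where the shares were 37.6% and 37.4%. In NADPH supply 1 of 9 was higher and 8 lower in deprived cis cells, and the median log2 change of this group was -0.48. The interaction of line and carboplatin had a median of 0.60 over the 10 tested genes of NADPH supply, with 6 higher in cis and 0 lower, and of -0.57 over the 10 tested regulators, with 0 higher and 8 lower. Over all genes 30.3% were higher and 27.2% lower in this interaction, with a median of 0.02.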

How the data were processed

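RNA-seq counts of 36 libraries of A2780 cells were used, grouped by the sample labels into 12 conditions with 3 libraries each. Replicate numbers are not in the labels. The authors aligned single reads with STAR to GRCh37.p13, counted exons of GENCODE v19 with HTSeq and deposited raw counts. The strand setting and treatment of reads with several alignments are not given in the sources used here. Library sizes and tests did not use the 3 rows without a gene, and 4.21% to 17.9% of each library fell on no gene. Symbols and positions came from GENCODE v44 on GRCh37, which named 55538 of 57820 identifiers, and promoters from RefSeq on GRCh38.p14. TXNIP, SOD2 and PECAM1 were not matched.

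Each comparison was fitted on its own libraries with edgeR 4.0.16 in R 4.3.3 (filterByExpr, TMM, robust glmQLFit, glmQLFTest), with Benjamini-Hochberg adjustment over all genes tested and a threshold of 0.05. The SE is the absolute log2 fold change divided by the square root of F. Responses were compared by interaction terms over 4 conditions. Replicate pairs had a mean chi-square per gene of 1.20 to 123 in 36 pairs, and none was counted as 1 library. Total counts of 13074937 to 20441582 set the sampling noise. SEs and SDs measure the spread between libraries, and the floor of 3 counts covers counting error only.

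The members, lists and tests were chosen with earlier results of these data known. All 10 members were described in every comparison. Other pathway genes were named where called, if they averaged 50 counts or more and their libraries did not overlap, at most 2 per group and direction in cis against wt and in wt carbo against wt. Alternatives were DESeq2 1.42.0 (Wald test), its size factors in edgeR, total counts, no filter, at least 10 counts in every library, a single fit over 36 libraries, each library left out, and named libraries left out together, of which the set for the medium difference in cis was added after seeing the data. Tests were tried on simulated data. Python, pandas and matplotlib were used for tables and plots.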

Additional observations from a re-analysis of the deposited data

Results flagged for a closer look

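Members differed between the lines in their response to carboplatin, by the interaction test of edgeR. The log2 response in cis minus that in wt was -1.19 for NFE2L2, -0.40 for GCLM, 0.21 for GSR, -0.54 for GPX4, -0.88 for TXNRD1, -0.60 for NQO1 and -4.13 for HMOX1. The calls for GSR and GPX4 were lost in a single fit over the 36 libraries (adjusted p = 0.0937 and 0.194).

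The responses to serine/glycine deprivation also differed between the lines. Cis minus wt on the log2 scale was 0.56 for NFE2L2, 0.71 for GCLC, 0.78 for GCLM, -0.40 for GSR, -0.48 for GSTP1, 2.80 for SRXN1, 0.40 for NQO1 and 2.76 for HMOX1. The single fit over the 36 libraries did not call GSTP1 (adjusted p = 0.113) or NQO1 (adjusted p = 0.134). SRXN1 had 1, 4 and 2 counts in wt -SG, so its value rests on few counts. It also passed the filter on low counts largely through cis -SG, where it was higher.

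In wt cells the response to carboplatin differed between the media. Without serine and glycine minus complete medium it was 0.44 for GCLM, 0.45 for GPX4, 0.30 for GSTP1, -0.56 for NQO1 and 0.24 for HMOX1. The single fit over the 36 libraries did not call GPX4 (adjusted p = 0.423), GSTP1 (adjusted p = 0.538) or HMOX1 (adjusted p = 0.395). The calls for GPX4 and GSTP1 held with any of the 12 libraries left out, at 0.34 to 0.51 and 0.22 to 0.35. Both genes were high in replicate 2 of wt -SG carbo, which had a trend over exon length of -0.14. The part of this trend in these differences was not tested. The call for HMOX1 (adjusted p = 0.0293) was lost without replicate 2 or 3 of wt, replicate 1 or 3 of wt carbo, or replicate 2 or 3 of wt -SG, with adjusted p of 0.0536 to 0.0830.

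In cis cells this difference between the media was -0.20 for NFE2L2, 0.22 for TXNRD1, 0.32 for NQO1 and -0.49 for HMOX1. All 4 calls were lost in the single fit over the 36 libraries (adjusted p of 0.183 to 0.692). With replicates 2 and 3 of cis -SG carbo left out the values were -0.18, 0.25, 0.34 and -0.40 in the same order, but 1 library then stands for that condition and is assumed to vary like those of the other 3.

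Groups of 3 libraries were too small for a test of single outlying libraries.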

How the results depend on the processing

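No log2 change of a member that passed the test changed sign under any alternative run. Of 445 values of called members under other settings, 410 kept their call and 35 lost it, most of them in a single fit over 36 libraries, and of 582 values with a library left out 545 kept it and 37 lost it. Of 422 and 504 values of members not called, 22 and 44 changed sign and 20 and 16 became called. The causes were not tested, except that leaving out a library is a test on fewer samples.

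The number of members called moved by more than 1.5 times in 9 comparisons. In cis SSP against cis it was 2, but 4 by DESeq2, 5 in the single fit, and 2 to 6 with a library left out. In cis carbo against cis it was 2, but 1 without a filter, by DESeq2 and in the single fit, and 1 to 3 with a library left out. In cis SSP carbo against cis SSP it was 2, but 1 with total counts or without a filter, and 0 to 7 with a library left out. The single fit gave 2 in place of 6 in wt -SG against wt, 1 in place of 5 in cis -SG carbo against cis -SG, 2 in place of 5 for the medium difference in wt and 0 in place of 4 for that in cis. In cis SSP -SG against cis SSP it was 0, but 1 by DESeq2, 3 in the single fit and 6 with cis SSP replicate 1 and cis SSP -SG replicate 2 left out. In cis SSP -SG carbo against cis SSP -SG it was 1, but 3 in the single fit and 0 to 5 with a library left out. Calls over all genes moved as well. In cis SSP against cis they were 3990 of 13714 with all libraries, 4556 of 17852 by DESeq2 and 9262 of 14154 without cis SSP replicate 1. In cis SSP carbo against cis SSP they were 377 of 13885 with all libraries and 5835 of 14170 without that replicate. For the medium difference in cis, leaving out 2 libraries was chosen after seeing the data.

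Changes of sign, all of log2 values of members that had not passed the test, were as follows. With no filter the values were 0.015 for GSTP1 in cis vs wt, -0.0014 for NQO1 in cis carbo vs cis, 0.0104 for GSR and 0.0012 for GPX4 in cis SSP -SG vs cis SSP and 0.025 for GCLC in the line difference in carboplatin response. With a single fit over 36 libraries the values were 0.012 for GSTP1 in cis vs wt and -0.045 for TXNRD1 in the line difference in deprivation response. With total counts the values were -0.034 for GSTP1 in wt carbo vs wt, -0.0051 for GSR in cis SSP carbo vs cis SSP, 0.051 for GCLC and 0.0094 for GSTP1 in the line difference in carboplatin response and 0.024 for GCLC and 0.016 for GSTP1 in the medium difference in cis. With the size factors of DESeq2 in edgeR the values were 0.0079 for GSR in cis SSP -SG vs cis SSP. With DESeq2 the values were 0.013 for GSR and 0.0032 for GPX4 in cis SSP -SG vs cis SSP and -0.00205 for GPX4 in the medium difference in cis. With cis -SG carbo replicates 2 and 3 left out the values were 0.018 for GSR, 0.043 for GPX4, 0.032 for GSTP1 and 0.18 for SRXN1 in cis -SG carbo vs cis -SG and 0.038 for GSTP1 in the medium difference in cis. With a library left out, cis vs wt gave -0.031 to 0.015 for GSTP1. Cis SSP vs cis gave -0.094 to 0.50 for GPX4 and -0.041 to 0.47 for GSTP1. Cis carbo vs cis gave -0.0093 to 0.045 for NQO1 and -0.026 to 5.90e-04 for TXNRD1. Cis SSP carbo vs cis SSP gave -0.39 to 0.17 for GSTP1, -0.19 to 0.11 for NQO1 and -0.0058 to 0.12 for GSR. Cis SSP -SG vs cis SSP gave -0.0602 to 0.057 for GSR, -0.48 to 0.42 for GPX4, -0.42 to 0.30 for GSTP1, -0.059 to 0.26 for TXNRD1 and -0.0062 to 0.36 for NQO1. Cis -SG carbo vs cis -SG gave -0.41 to 0.17 for SRXN1 and -0.077 to 0.0036 for GSTP1. Cis SSP -SG carbo vs cis SSP -SG gave -0.069 to 0.072 for GSR, -0.63 to 0.0897 for GPX4, -0.38 to 0.17 for GSTP1 and -0.24 to 0.071 for NQO1. The line difference in carboplatin response gave -0.0400 to 0.023 for GCLC and -0.64 to 0.47 for SRXN1. The line difference in deprivation response gave -0.0078 to 0.044 for TXNRD1. The medium difference in cis gave -0.083 to 0.058 for GPX4.

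CPM levels under total counts were 0.958 to 1.11 times and under the size factors of DESeq2 0.975 to 1.04 times those given. No paired analysis was possible because the labels carry no replicate numbers that conditions share. Low counts limit SRXN1, with at most 23 in a library, and why they were low was not tested. The libraries of a condition do not cover variation between cultures.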
